A study of Homo sapiens with 8 samples.

Results

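Interferon-stimulated genes (ISGs) were followed as a list of 41 genes that type I interferons are known to induce. All 41 were among the 18955 genes measured in single cells of SUM159, a human line established from a triple-negative breast carcinoma. Membership is by gene name, and the list was drawn up with earlier results of these data in view. Cells carrying a lentiviral DNA barcode library were passaged up to 18 times in DMSO vehicle, in paclitaxel at 0.6 nM, in palbociclib at 160 nM, in JQ1 at 100 nM, or in JQ1 with either other drug at the same doses. JQ1 keeps BET proteins off acetylated chromatin, palbociclib inhibits CDK4/6 in the cell cycle, and paclitaxel freezes microtubules. There were 8 libraries. The parental cells before selection gave the pre-treatment library. An experiment on JQ1 with paclitaxel gave the DMSO library, the paclitaxel library, JQ1-A (JQ1 alone) and JQ1+paclitaxel. A separate experiment on JQ1 with palbociclib gave the palbociclib library, JQ1-B (JQ1 alone) and JQ1+palbociclib, with no vehicle library. Equal numbers of cells from the replicate cultures of a treatment were mixed before encapsulation, so a library stands for a treatment and cannot show how its cultures differed.

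The libraries held 459 to 1024 cells and 10621159 to 24240835 UMIs (molecules counted by their unique identifiers). VIM, CD44, KRT8 and KRT18, which SUM159 cells express, were present in every library, with VIM at 3279 to 4502 CPM, a gene's UMIs scaled to 1000000 in the library. The hormone receptors ESR1 and PGR, which a triple-negative line should lack, did not exceed 0.139 CPM, and the leukocyte markers PTPRC, CD14 and CD79A did not exceed 0.967 CPM. CD3E and the endothelial markers PECAM1, CDH5 and VWF were not among the genes measured. 13 cell barcodes occurred in more than 1 library. The mitochondrial share of UMIs had a median over cells of 3.72 to 3.96% in pre-treatment, DMSO and paclitaxel, and 4.69 to 7.18% in the other 5 libraries, palbociclib among them.

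Type I interferons bind the receptor chains IFNAR1 and IFNAR2, whose kinases JAK1 and TYK2 phosphorylate STAT proteins, STAT2 among them. With IRF9 these form a complex that binds interferon-stimulated response elements (ISREs) near the start of ISGs, and IRF1 and IRF7 bind related sites. The products of ISGs sense viral RNA and DNA, block entry, translation and replication of viruses, and tag proteins with the ubiquitin-like ISG15. Many tumour lines express part of the set without added interferon.

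Promoter windows of 300 bases, from 250 before to 50 after the RefSeq start in GRCh38.p14, were at hand for 34 of the 41 members and were searched on both strands for the ISRE core, which is GAAA, any 2 bases and GAAA. It was held by 20 of the 34 members (58.8%), against 996 of all 27305 windows (3.65%). The STAT site (TTC, any 3 bases and GAA) was found in 9 of the 34 (26.5%) and in 7.88% of all windows. Both motifs contain GAA, so their matches can overlap. Set beside the response to JQ1 described further on, the ISRE core was held by 8 of 15 members that fell, 6 of 7 that did not pass the test, 6 of 11 too low to test and not by STAT2, the 1 member with a window that rose. No window was at hand for IRF7, IFIT2, IFITM2, OAS2, OASL, MX2 and TRIM22. The stretches shown are those of 6 members on which the results turn, ISG15, IFIT1, IFIT3, OAS3, ISG20 and IFITM3, and of BST2 and IFI6, which hold the same element but did not pass the test for JQ1. Each stretch is 60 bases, read 5′ to 3′ along the gene and ending before its start, and capitals mark the core or its reverse complement.
ISG15 (chr1:1013365-1013424, + strand): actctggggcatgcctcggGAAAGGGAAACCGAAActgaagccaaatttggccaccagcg
IFIT1 (chr10:89392495-89392554, + strand): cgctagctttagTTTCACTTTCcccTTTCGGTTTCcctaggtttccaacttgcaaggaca
IFIT3 (chr10:89327850-89327909, + strand): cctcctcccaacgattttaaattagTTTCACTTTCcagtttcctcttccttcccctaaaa
OAS3 (chr12:112938414-112938473, + strand): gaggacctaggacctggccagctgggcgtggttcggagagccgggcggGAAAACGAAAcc
ISG20 (chr15:88638922-88638981, + strand): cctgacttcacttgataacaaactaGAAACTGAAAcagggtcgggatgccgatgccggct
IFITM3 (chr11:320861-320920, - strand): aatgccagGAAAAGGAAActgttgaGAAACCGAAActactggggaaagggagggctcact
BST2 (chr19:17405720-17405779, - strand): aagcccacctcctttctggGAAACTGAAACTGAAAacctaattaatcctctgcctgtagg
IFI6 (chr1:27672251-27672310, - strand): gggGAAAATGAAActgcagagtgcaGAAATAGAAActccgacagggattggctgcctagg
The match nearest to the start began 12 bases before it in OAS3, 35 in IFITM3, 69 in ISG20, 93 in IFI6, 103 in IFIT1, 107 in ISG15, 122 in IFIT3 and 124 in BST2. In ISG15 and BST2 a pair of matches overlapped within the stretch. A match is a run of letters and not a measured binding site.

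The summed level of the members separated the libraries by exposure to JQ1. Each UMI stands for a molecule read at its 3′ end, so counts of genes of different length were set side by side without scaling. The sum was 1422 CPM in pre-treatment, 1382 in DMSO, 1109 in paclitaxel and 1608 in palbociclib. The libraries with JQ1 held 717 CPM in JQ1-A, 766 in JQ1+paclitaxel, 681 in JQ1-B and 671 in JQ1+palbociclib. The groups did not overlap, and their means were 1380.3 ± 206 CPM without JQ1 and 709 ± 43.3 with it (mean ± SD, n = 4 libraries each), a ratio of 0.513. The same order held in single cells, where the median cell gave 0.104 to 0.148% of its UMIs to the members without JQ1 and 0.0607 to 0.0744% with it. By group of members, the ratio of the mean with JQ1 to the mean without was 0.132 for OAS and MX genes, 0.325 for IFIT genes, 0.365 for ISG15, UBE2L6 and the ubiquitin ligases HERC6, TRIM21 and TRIM22, 0.466 for sensors, 0.514 for IFITM genes with BST2, 0.593 for IFI genes, 0.630 for PARP and SAMD9 genes, 0.595 for other effectors and 0.696 for transcription factors. The OAS and MX group thus stood lowest, followed by the IFIT group, and the transcription factors stood highest. A lower share of members in a library can mean fewer cells that express them or less RNA in each, and the values per cell further on bear on this.

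**Figure D1:**
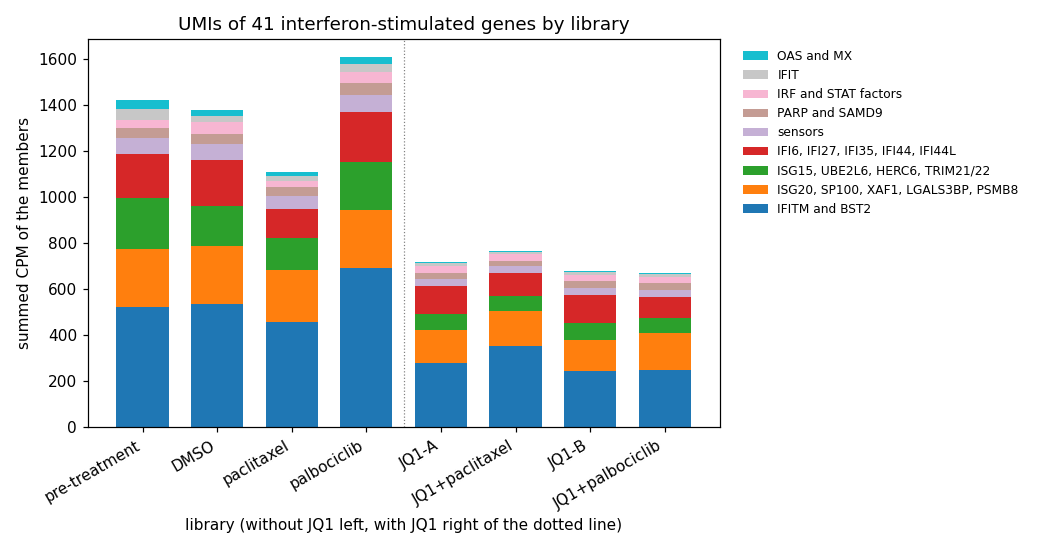
Summed CPM of the 41 members (y axis) in the 8 libraries (x axis), stacked by 9 groups of members, with libraries without JQ1 left of the dotted line and libraries with JQ1 right of it. The libraries with JQ1 reach 671 to 766 CPM, all below paclitaxel at 1109, and IFITM genes with BST2 form the largest block in every bar.

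Whether single members differed was tested on summed counts per library, in a model with 3 additive terms. JQ1 was present in 4 of the 8 libraries, and palbociclib and paclitaxel in 2 each. The fit ran over the 9288 genes that reached 5 CPM in at least 2 libraries. A gene was called at an edgeR adjusted p under 0.05. Of the 27 members that could be tested, 18 were lower and 2 higher with JQ1, while 19.7% of all tested genes were called lower and 17.8% higher. The median log2 fold change of the tested members was -0.87, and over all tested genes it was -0.0032. Of the 27, 19 reached 5 CPM in a library of each group, and 11 of those were called lower and 1 higher, with a median log2 fold change of -0.53 (all such genes, 18.2% and 17.9%). OASL, IFIT2, IFIT3, OAS3, ISG20, IFI44L and PARP9 entered the test only through libraries without JQ1 and IRF7 only through those with it. The filter thus selected these for a difference between the groups, and they supplied 7 of the 18 falls and 1 of the 2 rises. Of all 378 genes that entered only through libraries without JQ1, 60.1% were called lower. Of all 83 that entered only through those with it, 85.5% were called higher. In CPM, 18 tested members were lower in all 4 libraries with JQ1 than in all 4 without (all genes, 22.7%) and 1 was higher (all genes, 5.45%). The TMM scaling used in the test lowered the libraries without JQ1 by 0.197 on the log2 scale relative to those with it. After that scaling the members counted 18 and 1 again, and all genes 12.6% and 11.9%.

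**Figure D2:**
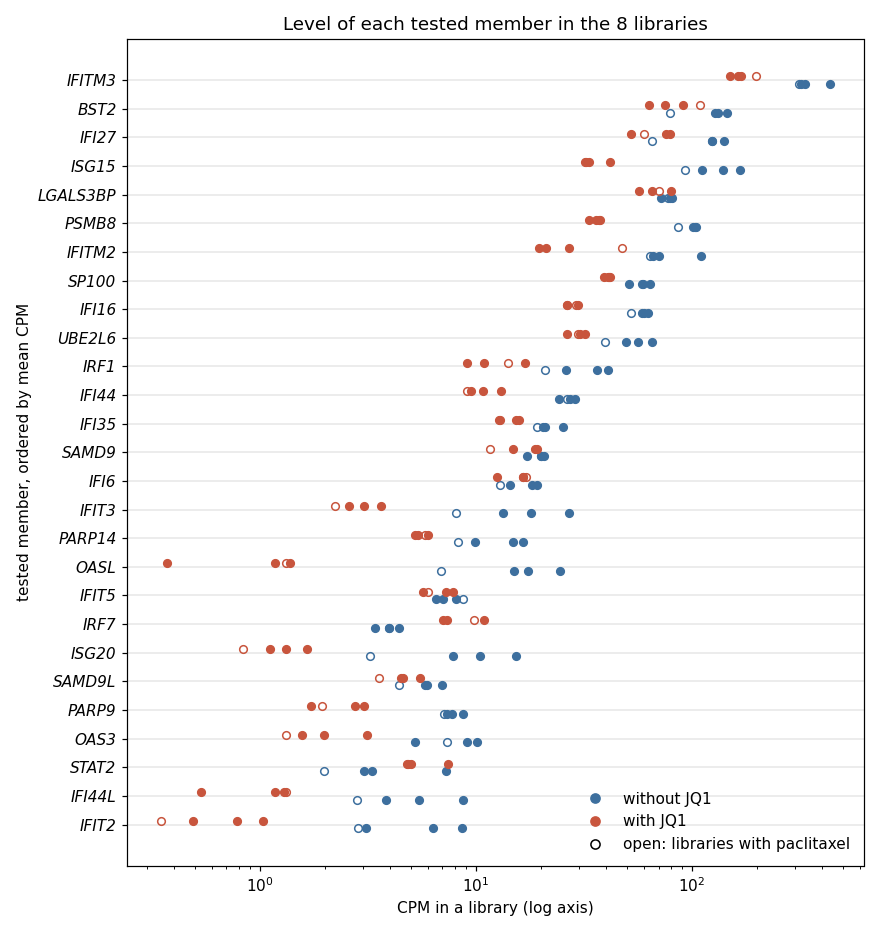
CPM of the 27 tested members (rows, ordered by mean) in each of the 8 libraries (points, log axis), blue without JQ1 and red with it, open where the library was exposed to paclitaxel. ISG15, PSMB8 and IFI44 have red and blue points far apart, IFIT5, IFI6 and LGALS3BP have them overlapping, and IRF7 has the red points on the higher side.

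In the IFIT and OAS families, OASL, IFIT2, IFIT3 and OAS3 fell. Each of them entered the test only through libraries without JQ1, where 60.1% of all such genes were called lower. The products of these families bind viral RNA or make the messenger that activates RNase L. OASL, an OAS-like protein that promotes RNA sensing (GRCh37 chromosome 12, 121455566 to 121477049), measured 24.5 CPM in pre-treatment, 15.1 in DMSO, 6.93 in paclitaxel and 17.5 in palbociclib, against 1.17 in JQ1-A, 1.32 in JQ1+paclitaxel, 1.38 in JQ1-B and 0.371 in JQ1+palbociclib. The 4 libraries with JQ1 were all below the lowest of the others (log2 fold change -3.73 ± 0.43 SE, edgeR adjusted p = 0.00121). IFIT3 (chromosome 10, 91087064 to 91137230), which partners IFIT1 in binding viral RNA, measured 27.1 CPM in pre-treatment, 13.4 in DMSO, 8.09 in paclitaxel and 18.1 in palbociclib, against 2.60 in JQ1-A, 2.23 in JQ1+paclitaxel, 3.65 in JQ1-B and 3.05 in JQ1+palbociclib. Its groups did not overlap either (log2 fold change -2.29 ± 0.27 SE, edgeR adjusted p = 0.00124). IFIT2, which belongs to the same RNA-binding family, measured 8.58 CPM in pre-treatment, 3.11 in DMSO, 2.86 in paclitaxel and 6.34 in palbociclib, against 0.494 in JQ1-A, 0.349 in JQ1+paclitaxel, 1.03 in JQ1-B and 0.784 in JQ1+palbociclib. Pre-treatment was its highest library and the libraries with JQ1 were all below the others (log2 fold change -2.78 ± 0.39 SE, edgeR adjusted p = 0.00217). OAS3, which synthesises that messenger, measured 10.1 CPM in pre-treatment, 9.13 in DMSO, 7.32 in paclitaxel and 5.26 in palbociclib, against 1.98 in JQ1-A, 1.32 in JQ1+paclitaxel, 3.15 in JQ1-B and 1.57 in JQ1+palbociclib. Its groups did not overlap (log2 fold change -1.78 ± 0.20 SE, edgeR adjusted p = 0.00115). IFIT5, a further RNA-binding member, did not pass the test, with 7.60 ± 1.009 against 6.68 ± 1.003 CPM (mean ± SD, n = 4 libraries each; log2 fold change 0.02 ± 0.16 SE, edgeR adjusted p = 0.941). IFIT1, OAS1, OAS2, MX1 and MX2 were too low to test. IFIT1 reached 6.67 CPM in pre-treatment and 2.31 to 4.95 in the other libraries without JQ1, against 0.330 to 1.17 with it. OAS1 and OAS2 had no UMI in JQ1-A, which allows up to 0.185 CPM by counting error, or in JQ1+paclitaxel, which allows up to 0.209, and at most 0.0493 CPM in the other libraries with JQ1. Without JQ1 they lay between 0.330 and 1.13 CPM. The antiviral GTPase MX1 lay at 0.440 to 0.942 CPM without JQ1 and 0.0985 to 0.495 with it, and MX2 at 0.275 to 2.11 CPM without JQ1 and at most 0.556 with it, with no UMI in JQ1+paclitaxel. The groups of both overlapped.

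ISG15 and UBE2L6 fell as well. ISG15 (chromosome 1, 936518 to 949920) measured 166 CPM in pre-treatment, 111 in DMSO, 93.0 in paclitaxel and 139 in palbociclib, against 33.2 in JQ1-A, 31.9 in JQ1+paclitaxel, 41.7 in JQ1-B and 32.3 in JQ1+palbociclib. Every library with JQ1 held less than the lowest library without it (log2 fold change -1.66 ± 0.17 SE, edgeR adjusted p = 0.00099). UBE2L6, the enzyme that carries ISG15 to its targets, measured 49.6 CPM in pre-treatment, 56.5 in DMSO, 39.6 in paclitaxel and 65.4 in palbociclib, against 32.0 in JQ1-A, 29.6 in JQ1+paclitaxel, 26.4 in JQ1-B and 30.4 in JQ1+palbociclib. Its groups did not overlap (log2 fold change -0.62 ± 0.15 SE, edgeR adjusted p = 0.0158). That call was lost without DMSO (-0.58 with an adjusted p of 0.0562) and without JQ1-B (-0.55 with an adjusted p of 0.0591). The ubiquitin ligases HERC6, TRIM21 and TRIM22 stayed below 5 CPM in every library, with HERC6 at 2.17 to 3.62 CPM without JQ1 and 1.05 to 1.72 with it. TRIM21 lay at 2.53 to 3.48 CPM without JQ1 and 1.40 to 2.96 with it, so its groups overlapped. TRIM22 lay at 0.275 to 1.13 CPM without JQ1 and 0.0618 to 0.148 with it.

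The membrane proteins that restrict viral entry or release supplied more of the member UMIs than any other group. IFITM1, with IFITM2 and IFITM3 a member of 1 family, was too low to test, at 2.17 to 5.81 CPM without JQ1 and 0.246 to 1.19 with it. IFITM3 (chromosome 11, 319676 to 329475), the most abundant member, measured 319 CPM in pre-treatment, 334 in DMSO, 312 in paclitaxel and 434 in palbociclib, against 163 in JQ1-A, 198 in JQ1+paclitaxel, 149.9 in JQ1-B and 169 in JQ1+palbociclib. All 4 libraries with JQ1 were below the others (log2 fold change -0.84 ± 0.14 SE, edgeR adjusted p = 0.00388). IFITM2 measured 65.6 CPM in pre-treatment, 70.3 in DMSO, 63.5 in paclitaxel and 110.4 in palbociclib, against 27.0 in JQ1-A, 47.6 in JQ1+paclitaxel, 21.0 in JQ1-B and 19.5 in JQ1+palbociclib. JQ1+paclitaxel came nearest to the libraries without JQ1, and palbociclib stood above the rest (log2 fold change -1.28 ± 0.31 SE, edgeR adjusted p = 0.0145). Without JQ1-B the IFITM2 value was -1.20 with an adjusted p of 0.0517. IFITM2 and IFITM3 are close paralogs, and reads that match both may be split between them, so their separate values are uncertain. The same holds among OAS genes and between SAMD9 and SAMD9L. BST2 (tetherin; chromosome 19, 17513748 to 17516439) measured 132 CPM in pre-treatment, 128 in DMSO, 78.6 in paclitaxel and 146 in palbociclib, against 90.5 in JQ1-A, 108 in JQ1+paclitaxel, 75.02 in JQ1-B and 63.1 in JQ1+palbociclib. Its groups overlapped, because paclitaxel was the lowest library without JQ1 and JQ1+paclitaxel the highest with it (log2 fold change -0.32 ± 0.26 SE, edgeR adjusted p = 0.341). BST2 was called lower in the libraries with no drug but JQ1 or none (-0.39 with an adjusted p of 0.0351) and when paclitaxel was left out (-0.67 with an adjusted p of 0.0154) or JQ1+paclitaxel was (-0.67 with an adjusted p of 0.0153), and its sign turned within the paclitaxel experiment and pre-treatment (0.21 with an adjusted p of 0.465).

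Among the IFI genes, whose functions are less well defined, 3 of 5 fell. IFI44 measured 28.8 CPM in pre-treatment, 24.3 in DMSO, 26.3 in paclitaxel and 27.4 in palbociclib, against 13.04 in JQ1-A, 9.06 in JQ1+paclitaxel, 10.7 in JQ1-B and 9.53 in JQ1+palbociclib. Its groups were far apart (log2 fold change -1.15 ± 0.14 SE, edgeR adjusted p = 0.00138). IFI44L measured 3.83 CPM in pre-treatment, 5.46 in DMSO, 2.81 in paclitaxel and 8.70 in palbociclib, against 1.30 in JQ1-A, 1.32 in JQ1+paclitaxel, 1.18 in JQ1-B and 0.536 in JQ1+palbociclib. Palbociclib was its highest library, and the libraries with JQ1 were the 4 lowest (log2 fold change -2.03 ± 0.45 SE, edgeR adjusted p = 0.0108). IFI35 measured 20.8 CPM in pre-treatment, 25.4 in DMSO, 19.1 in paclitaxel and 20.4 in palbociclib, against 12.7 in JQ1-A, 12.9 in JQ1+paclitaxel, 15.9 in JQ1-B and 15.3 in JQ1+palbociclib. The groups lay close but did not overlap (log2 fold change -0.39 ± 0.12 SE, edgeR adjusted p = 0.0307), a call that was lost when any of 5 libraries was left out, with an adjusted p of 0.0532 without pre-treatment, 0.0918 without DMSO, 0.114 without JQ1-A, 0.057 without palbociclib and 0.0626 without JQ1-B. IFI27 measured 123 CPM in pre-treatment, 124 in DMSO, 65.2 in paclitaxel and 141 in palbociclib, against 75.6 in JQ1-A, 60.1 in JQ1+paclitaxel, 78.9 in JQ1-B and 52.4 in JQ1+palbociclib. Paclitaxel lay among the libraries with JQ1, and the member did not pass the test (log2 fold change -0.53 ± 0.21 SE, edgeR adjusted p = 0.0736). It passed without paclitaxel (-0.76 with an adjusted p of 0.0137), without JQ1+paclitaxel (-0.75 with an adjusted p of 0.0136), with no filter on low counts (-0.52 with an adjusted p of 0.0378) with DESeq2 (-0.52 with an adjusted p of 0.0271), and in the libraries with no drug but JQ1 or none (-0.42 with an adjusted p of 0.0114). IFI6, which lies in mitochondria and restrains cell death, had 16.2 ± 2.98 against 15.7 ± 2.09 CPM (log2 fold change 0.15 ± 0.18 SE, edgeR adjusted p = 0.533).

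Of the remaining effectors, ISG20 (an exonuclease; chromosome 15, 89178901 to 89199714) measured 15.3 CPM in pre-treatment, 7.81 in DMSO, 3.25 in paclitaxel and 10.45 in palbociclib, against 1.11 in JQ1-A, 0.837 in JQ1+paclitaxel, 1.33 in JQ1-B and 1.65 in JQ1+palbociclib. The groups were apart by more than the whole range of the libraries with JQ1 (log2 fold change -2.65 ± 0.31 SE, edgeR adjusted p = 0.00121). PSMB8, a subunit of the immunoproteasome (chromosome 6, 32808494 to 32812456), measured 104 CPM in pre-treatment, 101 in DMSO, 86.2 in paclitaxel and 103 in palbociclib, against 37.2 in JQ1-A, 37.4 in JQ1+paclitaxel, 33.2 in JQ1-B and 35.9 in JQ1+palbociclib. The libraries within each group lay close together (log2 fold change -1.26 ± 0.11 SE, edgeR adjusted p = 0.000651). PARP9 and PARP14 belong to the family of ADP-ribosyltransferases. PARP9 measured 7.73 CPM in pre-treatment, 8.76 in DMSO, 7.10 in paclitaxel and 7.37 in palbociclib, against 1.73 in JQ1-A, 1.95 in JQ1+paclitaxel, 3.05 in JQ1-B and 2.76 in JQ1+palbociclib. Every library with JQ1 was below the others (log2 fold change -1.50 ± 0.20 SE, edgeR adjusted p = 0.00186). PARP14 measured 9.93 CPM in pre-treatment, 14.8 in DMSO, 8.31 in paclitaxel and 16.5 in palbociclib, against 5.38 in JQ1-A, 5.79 in JQ1+paclitaxel, 5.22 in JQ1-B and 6.02 in JQ1+palbociclib. Its groups did not overlap (log2 fold change -0.92 ± 0.21 SE, edgeR adjusted p = 0.0118). SP100, a nuclear body protein, measured 59.2 CPM in pre-treatment, 63.9 in DMSO, 58.4 in paclitaxel and 50.99 in palbociclib, against 39.2 in JQ1-A, 41 in JQ1+paclitaxel, 41.1 in JQ1-B and 41.7 in JQ1+palbociclib. The libraries with JQ1 were again the 4 lowest (log2 fold change -0.31 ± 0.09 SE, edgeR adjusted p = 0.0274). The SP100 call was lost without 4 libraries in turn, the adjusted p being 0.0742 without pre-treatment, 0.0807 without DMSO, 0.109 without JQ1-A and 0.0935 without JQ1-B. The endosomal proteins SAMD9 (-0.10 ± 0.14 SE, edgeR adjusted p = 0.587) and SAMD9L (-0.16 ± 0.17 SE, edgeR adjusted p = 0.488) did not pass the test, the values being log2 fold changes. The secreted glycoprotein LGALS3BP measured 71.6 CPM in pre-treatment, 79.0 in DMSO, 77.5 in paclitaxel and 80.8 in palbociclib, against 65.5 in JQ1-A, 70.2 in JQ1+paclitaxel, 56.8 in JQ1-B and 79.7 in JQ1+palbociclib. The groups overlapped through JQ1+palbociclib, which lay above 3 of the libraries without JQ1 (log2 fold change 0.01 ± 0.10 SE, edgeR adjusted p = 0.965). XAF1, which favours apoptosis and was too low to test, lay at 2.20 to 4.05 CPM without JQ1 and 0.454 to 0.739 with it.

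The sensors and transcription factors went in both directions. IFI16, a sensor of DNA, measured 58.6 CPM in pre-treatment, 59.7 in DMSO, 52.2 in paclitaxel and 62.8 in palbociclib, against 29.7 in JQ1-A, 28.9 in JQ1+paclitaxel, 26.4 in JQ1-B and 26.4 in JQ1+palbociclib. The groups were well apart (log2 fold change -0.87 ± 0.12 SE, edgeR adjusted p = 0.00213). IRF1, an activator of many ISGs, measured 26.2 CPM in pre-treatment, 40.9 in DMSO, 20.8 in paclitaxel and 36.4 in palbociclib, against 16.9 in JQ1-A, 14.0 in JQ1+paclitaxel, 9.06 in JQ1-B and 10.9 in JQ1+palbociclib. DMSO was its highest library, and the libraries with JQ1 were the 4 lowest (log2 fold change -1.07 ± 0.27 SE, edgeR adjusted p = 0.0178). Its adjusted p was 0.0657 without DMSO and 0.0516 without JQ1-B. IRF7, the factor that amplifies interferon production (chromosome 11, 612553 to 615983), went the other way and measured 3.40 CPM in pre-treatment, 3.95 in DMSO, 3.96 in paclitaxel and 4.41 in palbociclib, against 7.35 in JQ1-A, 9.76 in JQ1+paclitaxel, 10.9 in JQ1-B and 7.01 in JQ1+palbociclib. All 4 libraries with JQ1 were above the others (log2 fold change 1.34 ± 0.21 SE, edgeR adjusted p = 0.00308). STAT2 measured 3.05 CPM in pre-treatment, 3.30 in DMSO, 1.98 in paclitaxel and 7.31 in palbociclib, against 5.01 in JQ1-A, 4.81 in JQ1+paclitaxel, 4.88 in JQ1-B and 7.43 in JQ1+palbociclib. Palbociclib lay close to JQ1+palbociclib and above the other libraries with JQ1, so the groups overlapped (log2 fold change 0.79 ± 0.24 SE, edgeR adjusted p = 0.0311). The STAT2 call was lost without 6 libraries in turn, the adjusted p being 0.092 without pre-treatment, 0.0792 without DMSO, 0.079 without paclitaxel, 0.087 without JQ1-A, 0.0815 without JQ1+paclitaxel and 0.0778 without JQ1-B. The RNA sensors IFIH1 and DDX58, the helicase DDX60 and IRF9 were too low to test. IFIH1 lay at 1.43 to 3.05 CPM without JQ1 and 0.206 to 0.494 with it, while DDX58 overlapped (0.880 to 3.93 against 1.26 to 2.68). DDX60 lay at 0.935 to 4.24 CPM without JQ1 and 0.413 to 0.739 with it. IRF9, the partner of STAT2 in the ISRE-binding complex, lay at 0.990 to 2.45 CPM without JQ1 and 0.887 to 2.101 with it, also with overlap.

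The 14 members named as too low to test did not reach 5 CPM in 2 libraries, and their ranges are given as a description. The libraries with JQ1 also had a higher mitochondrial share than 3 of the 4 without it, and the part of this in the differences was not tested. Palbociclib, at 5.58%, had a higher share than 3 of the 4 libraries with JQ1 and the highest summed level of the members.

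The count of called members depended on which libraries entered. With the 3 matched pairs alone, the pair being a block (JQ1-A with DMSO, JQ1+paclitaxel with paclitaxel, JQ1+palbociclib with palbociclib) 8 members were lower, and within the paclitaxel experiment and pre-treatment 10 were lower and 1 higher. In the 4 libraries with no drug but JQ1 or none, a setting added after seeing the data, 17 were lower and 1 higher of 24 tested. With the experiment as a further term 13 were lower and 1 higher, and IRF1, STAT2, IFITM2, UBE2L6, IFI35 and SP100 were no longer called. The share of all genes called in these settings is not given here, so the counts of members cannot be set against it. The palbociclib experiment on its own holds 3 libraries and gave no test. IFI16 (adjusted p = 0.0515), IRF7 (0.0543), IFITM3 (0.0635) and IFI44L (0.0762) lost their call in edgeR with the 3 pairs alone. PARP14, IRF1, STAT2, IFITM2, UBE2L6, IFI35 and SP100 lost theirs with the 3 pairs too. PARP14 also lost its call within the paclitaxel experiment and pre-treatment. OASL, IFIT3, OAS3, ISG15, ISG20, IFI44, PARP9 and PSMB8 were called lower in each of the 18 other settings tried, and IFIT2 in the 12 in which it could be tested. Of these, OASL, IFIT2, IFIT3, OAS3, ISG20 and PARP9 entered the main test only through libraries without JQ1. The settings reuse the same libraries and are no independent support.

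The rest of the pathway was taken from a list of 76 further genes, 62 of them measured and 38 tested. Of these, 16 were lower and 2 higher with JQ1, beside the 19.7% and 17.8% of all genes. The falls were mostly in other targets of interferon, 10 of 13, among them GBP1, a guanylate-binding GTPase (log2 fold change -1.63 ± 0.21 SE, edgeR adjusted p = 0.00178), NMI, which binds STAT proteins (-1.51 ± 0.15 SE, edgeR adjusted p = 0.000874), PLSCR1, a membrane scramblase (-0.99 ± 0.11 SE, edgeR adjusted p = 0.0011), and the antigen-processing genes PSMB9 (-0.65 ± 0.12 SE, edgeR adjusted p = 0.00579) and TAP1 (-0.60 ± 0.13 SE, edgeR adjusted p = 0.0101). The others were APOL6 (-0.79 ± 0.24 SE), PNPT1 (-0.67 ± 0.21), APOL2 (-0.65 ± 0.16), LAP3 (-0.38 ± 0.11) and SP110 (-0.38 ± 0.12), with edgeR adjusted p from 0.0135 to 0.0411. USP18, which removes ISG15 and damps signalling at IFNAR2, measured 8.37 CPM in pre-treatment, 10.4 in DMSO, 7.87 in paclitaxel and 5.44 in palbociclib, against 3.03 in JQ1-A, 2.37 in JQ1+paclitaxel, 3.69 in JQ1-B and 2.23 in JQ1+palbociclib. All 4 libraries with JQ1 were below the others (log2 fold change -1.29 ± 0.16 SE, edgeR adjusted p = 0.00155). USP18, GBP1, and IKBKE and TMEM173 named below, stayed under 5 CPM in every library with JQ1. They entered the test only through libraries without it, and 60.1% of all genes that entered so were called lower.

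None of the 7 receptor and kinase genes tested was called. IFNAR1 lay at 20.4 to 26.4 CPM without JQ1 and 21.6 to 29.0 with it (log2 fold change 0.28 ± 0.13 SE, edgeR adjusted p = 0.108), and IFNAR2 at 10.1 to 16.9 and 10.6 to 13.4 (log2 fold change -0.07 ± 0.16 SE, edgeR adjusted p = 0.763). JAK1 was 0.28 ± 0.10 SE, edgeR adjusted p = 0.0532 on the log2 scale and TYK2 0.32 ± 0.18 SE, edgeR adjusted p = 0.193. The inhibitor of JAK kinases SOCS1 (log2 fold change 1.37 ± 0.29 SE, edgeR adjusted p = 0.00922) and the nucleotide hydrolase SAMHD1 (0.75 ± 0.14 SE, edgeR adjusted p = 0.00631) rose. In nucleic acid sensing, IKBKE (-1.14 ± 0.22 SE, edgeR adjusted p = 0.00671), TMEM173, which encodes STING (-1.08 ± 0.34 SE, edgeR adjusted p = 0.0365), and MB21D1, which encodes cGAS (-0.71 ± 0.22 SE, edgeR adjusted p = 0.0365), fell, and MAVS (0.12 ± 0.15 SE, edgeR adjusted p = 0.529), TBK1 (0.04 ± 0.12 SE, edgeR adjusted p = 0.833) and IRF3 (-0.18 ± 0.10 SE, edgeR adjusted p = 0.191) did not pass the test. SOCS3 fell (-1.38 ± 0.37 SE, edgeR adjusted p = 0.0205), as did IRF2 (-0.52 ± 0.17 SE, edgeR adjusted p = 0.0396). Of 13 interferon genes, 2 were measured. IFNE did not exceed 0.0825 CPM, and IFNL1 had 15 UMIs in pre-treatment, 2 in palbociclib and none elsewhere. IFNB1 was not analysed here.

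**Figure D3:**
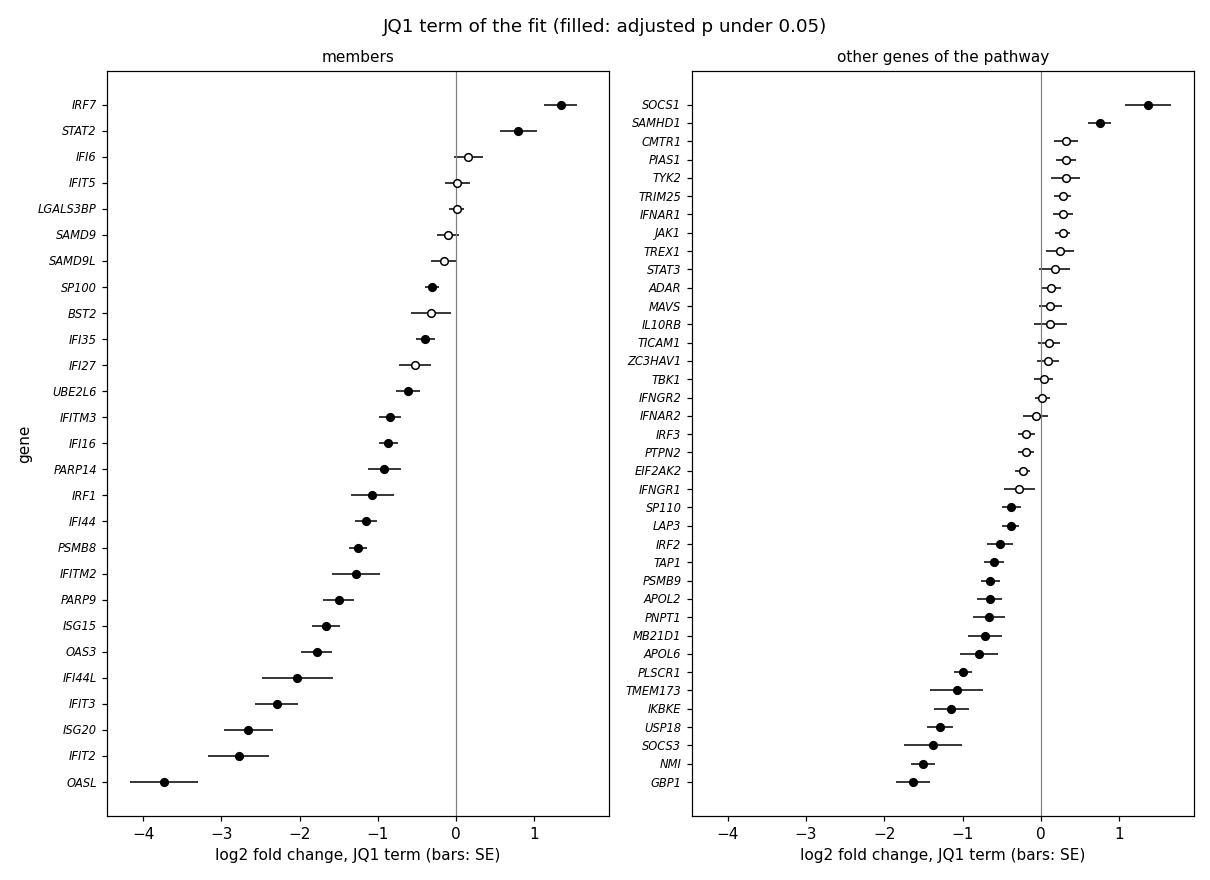
Log2 fold change of the JQ1 term (x axis, bars are SE) for the 27 tested members (left) and the 38 tested genes of the rest of the pathway (right), filled where the adjusted p was under 0.05. OASL at -3.73 and IRF7 at 1.34 are the extremes of the members, and the receptor and kinase genes lie near 0 with open points.

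Per cell, some members were concentrated in a few cells and others were spread over many. In pre-treatment, the 1% of cells with most IFIT3 held 63.7% of its 168 UMIs, counted after the thinning described next. The like share of IFITM3 was 3.37% of 1842 UMIs. For IFIT3 it was lower in DMSO (39.7%), paclitaxel (35.4%) and palbociclib (41.6%). For IFIT2 it was 92.9% of 70 UMIs in pre-treatment, 62.5% of 16 in DMSO, 100% of 16 in paclitaxel and 65.4% of 52 in palbociclib. The share also rises where UMIs are few, as in JQ1+paclitaxel, where it was 77.8% of 9 IFIT3 UMIs. Cells that met the study's filter were thinned to 10000 UMIs each, and the UMIs of the 10 IFIT, OAS and MX genes were counted in each cell. Most cells had none, from 68.3 to 74.7% without JQ1 and from 85.4 to 89.9% with it. A few cells carried many. At least 5 of these UMIs were found in 10 of 583 cells in pre-treatment (1.72%, exact 95% binomial interval 0.826 to 3.13%), 8 of 445 cells in DMSO (1.80%, exact 95% binomial interval 0.779 to 3.51%), 6 of 732 cells in paclitaxel (0.820%, exact 95% binomial interval 0.301 to 1.78%) and 16 of 662 cells in palbociclib (2.42%, exact 95% binomial interval 1.39 to 3.90%). With JQ1 there were 1 of 837 cells in JQ1-B (0.119%, exact 95% binomial interval 0.00302 to 0.664%) and 1 of 972 cells in JQ1+palbociclib (0.103%, exact 95% binomial interval 0.00260 to 0.572%). JQ1-A had 0 of 650 cells, where 3 cells of the total, the limit set for a count of 0, would be 0.462% and the exact interval reaches 0.566%, and JQ1+paclitaxel 0 of 606 cells, where these are 0.495% and 0.607%. These intervals and limits cover counting error only. The number 5 was chosen with the values in view and marks a range, not a cell type. A second random draw of the UMIs, added after seeing the data, gave 13, 8, 6 and 18 cells in pre-treatment, DMSO, paclitaxel and palbociclib and 0, 0, 1 and 0 in JQ1-A, JQ1+paclitaxel, JQ1-B and JQ1+palbociclib. At 3 UMIs the counts were 17, 13, 11 and 28 without JQ1 and 2, 0, 4 and 3 with it, and at 10 they were 8, 5, 4 and 11 without JQ1 and 0 in each library with it. The ratio of variance to mean of these UMIs, which is 1 for pure counting noise, was 25.3 in pre-treatment, 4.24 in DMSO, 3.49 in paclitaxel and 9.13 in palbociclib, and 1.04 to 1.56 with JQ1. This ratio can lie nearer to 1 where the mean is low, and the mean was 0.389 to 0.885 UMIs without JQ1 and 0.109 to 0.178 with it. In pre-treatment, single cells with 55, 58 and 67 UMIs weigh heavily in it. All cells are of a single line, so no cell type that should lack these genes was at hand to gauge free RNA.

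**Figure D4:**
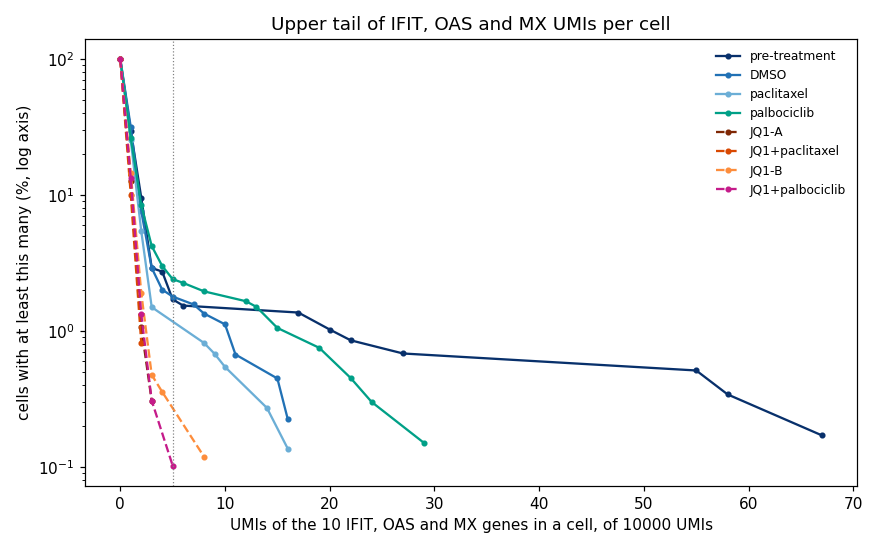
Share of cells (y axis, log scale) with at least a given number of IFIT, OAS and MX UMIs among 10000 (x axis), for each of the 8 libraries; solid lines are libraries without JQ1 and dashed lines those with it. The solid lines run out to 16 to 67 UMIs and the dashed lines end at 2 to 8.

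In the libraries without JQ1 these 40 cells were 1.65% of 2422, and they held other members that had no part in choosing them. Of the 31 members outside the IFIT, OAS and MX genes, 17 stood over 2-fold higher in the 40 cells. The share of all genes that did so is not given here, so the count cannot be set against it. The 17 include TRIM22, TRIM21 and XAF1, which had only 3, 8 and 9 UMIs in the 40 cells. ISG15 stood at 1451 against 104 CPM in the remaining cells, and the 40 cells held 19.0% of its UMIs. ISG20 stood at 92.0 against 7.52 CPM, IFIH1 at 25.9 against 1.91 CPM, DDX60 at 32.1 against 2.29 CPM, DDX58 at 26.9 against 1.81 CPM, HERC6 at 29.0 against 2.50 CPM and IFI44 at 153 against 24.6 CPM. Each of these was higher in the chosen cells in at least 3 of the 4 libraries. Some rest on few UMIs in the 40 cells, with 25 of IFIH1, 26 of DDX58, 28 of HERC6 and 31 of DDX60. The abundant membrane proteins and others stood closer to the remaining cells, with IFITM3 at 493 against 349 CPM, BST2 at 151 against 118 CPM, IFITM2 at 72.4 against 78.5 CPM, PSMB8 at 98.2 against 97.5 CPM and LGALS3BP at 79.6 against 75.5 CPM. IRF7 and STAT2 were at 2.07 against 3.94 CPM and 4.14 against 3.84 CPM. These are values over pooled cells with no test, since cells of a library are not replicates. From the rest of the pathway, the ISG15 ligase HERC5 stood at 57.9 against 1.28 CPM and the chemokine CXCL10 at 56.9 against 0.955 CPM (named after their values were seen), while IFNAR1 stood at 22.8 against 23.9 CPM. The 17 IFNL1 UMIs of the cells used here all lay in the chosen cells. Their depth was close to that of other cells, for example a median of 22006 against 21659 UMIs in pre-treatment and 23876 against 22834 in palbociclib.

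**Figure D5:**
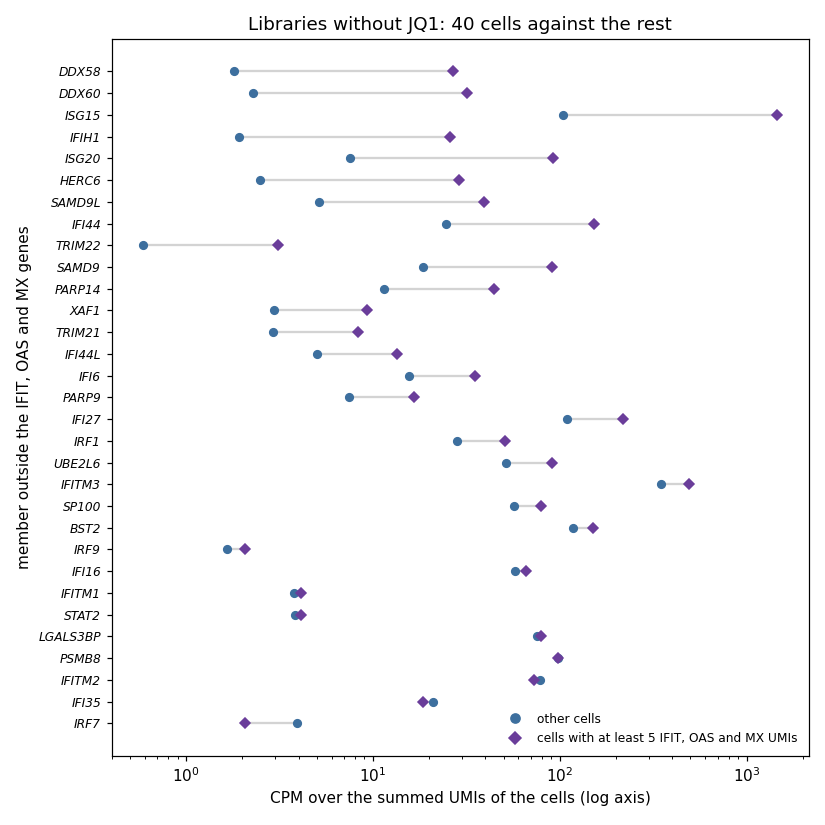
CPM (x axis, log scale) of the members outside the IFIT, OAS and MX genes (rows) in the 40 cells with at least 5 IFIT, OAS and MX UMIs (diamonds) and in the other 2382 cells (circles) of the 4 libraries without JQ1. ISG15 lies at 1451 against 104 CPM, whereas PSMB8 and LGALS3BP have both marks almost at the same place.

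Some members also varied together from cell to cell. Over the thinned cells of a library, Pearson's r of log-transformed UMIs of IFIT3 with OASL was 0.691 in palbociclib (662 cells), 0.581 in pre-treatment (583) and 0.465 in DMSO (445), and r of IFIT2 with IFIT3 was 0.737 in pre-treatment. Pairs were formed only from members with at least 0.1 UMIs per thinned cell in the library. IFIT2, IFIT3 and OASL fell under that minimum in paclitaxel and in the 4 libraries with JQ1, so r of these pairs was not computed there. IFIT2 also fell under it in DMSO and palbociclib, so its pair with IFIT3 was computed only in pre-treatment. Of all pairs formed, r passed 0.3 in 12 of 210 in pre-treatment, 3 of 153 in DMSO, 3 of 171 in palbociclib and none elsewhere. The median r of a library was 0.0202 to 0.0425. The cells of a library share its preparation and these rest on few UMIs, so they are descriptions only.

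For ISG15, the lower level with JQ1 was not confined to the rare cells. Among the cells below 5 IFIT, OAS and MX UMIs, ISG15 stood at 121 CPM in pre-treatment, 98.9 in DMSO, 86.8 in paclitaxel and 112 in palbociclib. In the same range of cells it stood at 33.5 in JQ1-A, 31.6 in JQ1+paclitaxel, 40.6 in JQ1-B and 32.1 in JQ1+palbociclib. The groups did not overlap there either. In a refit, the 5% of cells with the highest member share were left out of every library, a choice made after seeing the data. In it 17 members were lower and 2 higher of 26 tested. IFIT2 fell below the filter there and was not tested. The cells left out were picked by the values of the same members, so the refit is a description only. The share of all genes called in it is not given here. The log2 fold change of IFIT3 went from -2.29 to -1.20 ± 0.23 (SE), that of OASL from -3.73 to -2.52 ± 0.50, and that of ISG15 from -1.66 to -1.31 ± 0.12. IFITM3 (-0.89 ± 0.14) and PSMB8 (-1.31 ± 0.11) stayed within 1 SE of their values over all cells.

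Palbociclib and paclitaxel were each present in 2 libraries, with JQ1 and without. No member was called for palbociclib, where 0.28% of all tested genes were, and none for paclitaxel, where 0% were (edgeR). At an unadjusted p under 0.05 there were 3 of 27 members for palbociclib (all genes, 22.1%) and 3 for paclitaxel (all genes, 4.25%), and DESeq2 called 0 for both. The members nearest to a call for palbociclib were STAT2 (log2 fold change 0.96 ± 0.27 SE, edgeR adjusted p = 0.109) and OAS3 (log2 fold change -0.75 ± 0.25 SE, edgeR adjusted p = 0.138). STAT2 was called for palbociclib without paclitaxel (0.92 with an adjusted p of 0.0497), and without JQ1+palbociclib both STAT2 (1.47 with an adjusted p of 0.0275) and IFITM3 (0.62 with an adjusted p of 0.0492) were. For paclitaxel ISG20 had log2 fold change -1.40 ± 0.41 SE, edgeR adjusted p = 0.885, and IFIT3 log2 fold change -0.97 ± 0.35 SE, edgeR adjusted p = 0.885. The median log2 fold change of the tested members was 0.06 for palbociclib and -0.18 for paclitaxel.

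Whether JQ1 acted differently beside another drug was tested with interaction terms, which left 2 residual degrees of freedom. They called 0.388% of all genes for JQ1 with paclitaxel, 0.0108% for JQ1 with palbociclib, and no member (edgeR). At an unadjusted p under 0.05 there were 5 and 7 of 27 members (all genes, 17% in each). The nearest for paclitaxel were BST2 (1.16 ± 0.22 (SE), edgeR adjusted p = 0.0592) and IFITM2 (1.13 ± 0.24 (SE), edgeR adjusted p = 0.0832), both with a positive sign. For palbociclib they were IFITM2 (-1.18 ± 0.24 (SE), edgeR adjusted p = 0.113) and IFI27 (-0.93 ± 0.18 (SE), edgeR adjusted p = 0.113), both negative.

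Pairs of libraries were then set side by side to see which members led each difference. Each is 1 library against 1, so there is no replicate check and no test, and the ratios of CPM carry in brackets a 95% interval from counting error only. Between DMSO and pre-treatment, of 16 members at 20 CPM or more in the higher library 0 were over 2-fold higher and 1 over 2-fold lower in DMSO (all genes past 2-fold, 0.584%). The members that led were ISG15 at a ratio of 0.668 (0.623 to 0.717), IFIT3 at 0.494 (0.404 to 0.600), OASL at 0.616 (0.507 to 0.745) and IRF1 at 1.56 (1.35 to 1.79). IFITM3 was at 1.05 (1.003 to 1.10). The share of cells with at least 5 IFIT, OAS and MX UMIs was 1.72% in pre-treatment and 1.80% in DMSO, with up to 67 and 16 IFIT, OAS and MX UMIs in a cell.

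In paclitaxel against DMSO, 12 of 13 such members were lower, though 0 were over 2-fold higher and 0 over 2-fold lower in paclitaxel (all genes past 2-fold, 3.24%). IFI27 led with a ratio of 0.528 (0.488 to 0.571), followed by IRF1 at 0.509 (0.442 to 0.586) and BST2 at 0.615 (0.570 to 0.663), and IFITM3 was at 0.934 (0.895 to 0.974). In palbociclib against DMSO the direction was the opposite, with 11 of 14 higher, 0 past 2-fold (all genes, 4.26%), and the median log2 ratio was 0.18 for those members and -0.25 for all 4888 such genes. IFITM2 led at 1.57 (1.44 to 1.71), then IFITM3 at 1.30 (1.25 to 1.35) and ISG15 at 1.25 (1.17 to 1.35). Palbociclib and DMSO belonged to different experiments, so drug and experiment cannot be told apart in this pair.

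Each library with JQ1 held less of the set than its partner. In JQ1-A against DMSO, 13 of 13 members were lower, 6 of them over 2-fold (all genes past 2-fold, 10.1%), and the median log2 ratio was -0.998 for those members and -0.36 for all 4832 such genes. ISG15 was at 0.2998 (0.270 to 0.332), PSMB8 at 0.369 (0.334 to 0.408), IFITM2 at 0.384 (0.340 to 0.433) and IFITM3 at 0.487 (0.463 to 0.512). In JQ1+palbociclib against palbociclib all 14 were lower, 10 over 2-fold (all genes, 4.59%), and the median log2 ratio was -1.31 for those members and -0.05 for all 4731 such genes. IFITM2 was at 0.177 (0.159 to 0.196), ISG15 at 0.232 (0.214 to 0.252), IRF1 at 0.301 (0.259 to 0.348) and IFITM3 at 0.389 (0.374 to 0.404). In JQ1+paclitaxel against paclitaxel, 11 of 12 were lower, but only 3 over 2-fold where 21.2% of all genes passed it, and the median log2 ratio was -0.54 for those members and -0.44 for all 4897 such genes. Here ISG15 was at 0.343 (0.309 to 0.381), IFI44 at 0.345 (0.282 to 0.419), PSMB8 at 0.434 (0.393 to 0.479) and IFITM3 at 0.636 (0.608 to 0.665).

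Among the libraries with JQ1 the ratios were nearer to 1. No member passed 2-fold in JQ1-B against JQ1-A (all genes, 0.116%), in JQ1+paclitaxel against JQ1-A (all genes, 0.398%) or in JQ1+palbociclib against JQ1-B (all genes, 1.11%), each over 10 members at 20 CPM or more. The independent JQ1 selections differed most by fold in ISG15 at 1.25 (1.12 to 1.40), IFITM2 at 0.779 (0.680 to 0.892) and UBE2L6 at 0.825 (0.730 to 0.932), and by level also in IFITM3 at 0.922 (0.874 to 0.971), BST2 at 0.8292 (0.771 to 0.891) and LGALS3BP at 0.868 (0.798 to 0.944). Adding paclitaxel to JQ1 gave IFITM2 at 1.76 (1.56 to 1.99), with IFITM3 at 1.22 (1.16 to 1.29), BST2 at 1.20 (1.12 to 1.29) and IFI27 at 0.795 (0.728 to 0.868). Adding palbociclib gave IFI27 at 0.665 (0.617 to 0.716), LGALS3BP at 1.40 (1.30 to 1.51), ISG15 at 0.775 (0.702 to 0.855) and IFITM3 at 1.13 (1.07 to 1.18). The intervals of these ratios all exclude 1, and the difference between JQ1-A and JQ1-B shows how far libraries of the same drug and dose can lie apart.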

How the data were processed

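RNA of 5738 SUM159 cells in 8 libraries was read by 3′ single-cell sequencing. The authors aligned reads to hg19 and counted UMIs with Cell Ranger, used Seurat to keep genes seen in at least 3 cells, and deposited raw counts per gene and cell (18955 genes). No removal of doublets is described, and no doublet caller was run here. Cells were taken as deposited for the library sums. For values per cell, 5575 (97.2%) passed the study's filter of 1 to 15% mitochondrial UMIs and at least 2000 genes and were thinned at random to 10000 UMIs, shallower cells being left out. Thinning removes differences in depth between cells. UMIs were summed per library (10621159 to 24240835). With 1 library per treatment, the spread comes from libraries that differ in other drugs and in experiment.

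Sums were fitted with edgeR 4.0.16 in R 4.3.3 (TMM, quasi-likelihood test, JQ1, palbociclib and paclitaxel as additive terms, 4 residual degrees of freedom) over 9288 genes with at least 5 CPM in 2 libraries. P-values were adjusted by Benjamini-Hochberg over all of these, with a threshold of 0.05. The SE of a log2 fold change was its size divided by the square root of F and is approximate. Alternatives were RLE size factors, DESeq2 1.42.0, no filter, stricter cells, leaving out each library, an experiment term and subsets of libraries. Fits and calls were tested on simulated counts. Ratios between 2 libraries have exact conditional counting intervals.

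The members and the pathway lists were chosen with earlier results of these data known. Values in all 8 libraries are given for members called in any drug term, for the 10 members with the highest mean CPM, and for USP18. Pairs of libraries name the 3 members with the largest difference and the 3 with the largest fold among those with at least 20 CPM. Called pathway genes, IFNAR1, IFNAR2 and IFNB1 are named too. A gene of the pathway is not reported here and was left out of its lists, though not out of the fits. Gene positions are GRCh37, the build of the files, and promoter windows are RefSeq's in GRCh38.p14.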

Additional observations from a re-analysis of the deposited data

Results flagged for a closer look

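Within the 4 libraries with JQ1 or the 4 without, 4 of 56 groups tested had a library far from the other 3, with a gap over range above Dixon's 95% critical value, and chance gives such a library in about 1 of 20 groups. STAT2 stood at 7.43 CPM in JQ1+palbociclib, where the other libraries with JQ1 held 4.81 to 5.01. ISG15 stood at 41.7 CPM in JQ1-B, against 31.9 to 33.2 in the others. IFI6 stood at 12.6 CPM in JQ1+palbociclib, below the 16.6 to 17.1 of the others. IFITM2 stood at 110.4 CPM in palbociclib, above the 63.5 to 70.3 of the other libraries without JQ1. JQ1-B, from the same experiment as JQ1+palbociclib, held 4.88 CPM of STAT2 and 16.6 of IFI6. That experiment had no vehicle library, so for IFITM2 in palbociclib the drug and the experiment cannot be told apart.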

How the results depend on the processing

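For single members and JQ1 under other settings, 341 values kept their direction and their side of the threshold, 46 kept the direction and lost the call, 8 gained it and 7 changed sign, none of a called member. The changes of sign were BST2, 0.21 on the log2 scale within the paclitaxel experiment and pre-treatment, and LGALS3BP, -0.058 without the 5% of cells with the highest member share, -0.039 in the libraries with no drug but JQ1 and -0.037 to 0.067 without each library in turn. For palbociclib 13 values changed sign and for paclitaxel 12, again none of a called member. Without each library in turn the palbociclib value ranged from -0.18 to 0.27 for IFI16, from -0.55 to 1.01 for IFITM2, from -0.017 to 0.62 for IFITM3, from -0.64 to 0.48 for BST2, from -0.33 to 0.20 for ISG15, from -0.074 to 0.52 for UBE2L6, from -0.71 to 0.42 for IFI27 and from -0.088 to 0.21 for PSMB8, and BST2 was 0.25 with the experiment as a term. The paclitaxel value ranged from -0.23 to 0.16 for IFI16, from -0.29 to 1.23 for IFITM2, from -0.14 to 0.48 for IFITM3, from -0.84 to 0.56 for BST2, from -0.48 to 0.14 for UBE2L6, from -0.041 to 0.058 for SP100 and from -0.27 to 0.17 for PSMB8, IFI16 was 0.010 with no filter, and SP100 was -0.018 within the paclitaxel experiment and pre-treatment. The 20 members called became 8 with the 3 matched pairs and 11 within the paclitaxel experiment and pre-treatment. The count was 18 in the libraries with no drug but JQ1 or none, and lay between 14 and 21 when each library was left out in turn, and the cause of these differences was not tested. With the experiment as a term they were 14, with no filter 29 of 41, with DESeq2 21 and with RLE size factors 20. These counts too are given without the share of all genes called in each setting. For palbociclib the count went from 0 to at most 2 when a library was left out, 1 without paclitaxel and 2 without JQ1+palbociclib, and the cause was not tested. For paclitaxel it was 0 in every setting tried. The members' share of UMIs was 0.0709% with JQ1 and 0.138% without, and 0.0539% and 0.103% without IFITM3, by construction lower. Leaving out a library kept the shares within 0.0690 to 0.0721% and 0.130 to 0.147%. A replicate block could not be fitted, since the labels give each group 1 library and no replicate numbers, and the 3 matched pairs were fitted with the pair as a block instead. Depth limits the 14 members that did not reach 5 CPM in 2 libraries and the cells with many IFIT, OAS and MX UMIs, of which there were 40 without JQ1 and 2 with it.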
